A study of Mus musculus with 4 samples.

Results

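Guanylate-binding proteins and immunity-related GTPases were followed across the cell classes of mouse brain tissue after ischemic stroke. The 10 genes described here were taken by name from the 55357 genes of the deposited tables, and all 10 were found there. They are the guanylate-binding proteins Gbp2, Gbp3, Gbp5, Gbp6 and Gbp7, the regulatory immunity-related GTPases Irgm1, Irgm2 and Igtp (also called Irgm3), and the effector immunity-related GTPases Iigp1 (Irga6) and Gm12250 (Irgb10). They had been put together as genes read as leaning on interferon gamma.

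The tissue was the dissociated ipsilateral hemisphere of wild-type mice, and every group had a stroke, received hydrogel microspheres in the infarct cavity on day 5 and was harvested on day 14. In 3 groups the implant carried extracellular vesicles (EVs), which the series title describes as astrocyte-derived: IL-4 C1q EV, IL-1a TNFa C1q EV and UT EV, each followed by +MAPS in the labels. The implant of the last group, MAPS, is labelled with no vesicles, so that MAPS is part of all 4 treatments. Each group is 1 single-cell RNA sequencing library, and the number of animals behind it is not stated. No difference between groups therefore has a replicate check, no test was made, and all intervals given are exact 95% intervals that cover counting error only.

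Guanylate-binding proteins are large GTPases that coat the membranes of intracellular bacteria and of the vacuoles around parasites, break them open and bring inflammasomes to their content. The effector immunity-related GTPases attack the same vacuoles, while the Irgm proteins sit on the cell's own membranes and keep the effectors off them. Cells hold little of either family until interferon arrives. Interferon gamma, made by T and NK cells, acts on genes mainly through the gamma-activated site (GAS), and type I interferons mainly through the interferon-stimulated response element (ISRE).

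4 windows just before a gene's start are printed to show genes with both elements and genes with the ISRE alone. The reference gives the 250 bases before the start of 8 of the 10 genes (RefSeq, GRCm38.p6), with 2 starts for Gbp3. Gbp6 and Iigp1 have no printed window here. The ISRE, searched on both strands as a fixed motif, was found before at least 1 start of all 8 genes and in 2.98% of all 32851 windows of that length. The letters TTCNNNGAA, which read the same on both strands and were searched as the GAS, were found in 5 of the 8 (Gbp5, Gbp7, Gm12250, Igtp and Irgm2) and in 7.02% of all windows. Both were found in those 5 genes and in 0.332% of all windows. Gbp2 lies at chr3:142620413-142620662 on the plus strand and Irgm1 at chr11:48871421-48871670 on the minus strand, each with the ISRE letters only. Igtp lies at chr11:58199306-58199555 and Gm12250 at chr11:58183593-58183842, both on the plus strand and both with ISRE and GAS letters. Each window is written 5′ to 3′ and ends at the base before the gene's start, with the motif letters in capitals.
Gbp2: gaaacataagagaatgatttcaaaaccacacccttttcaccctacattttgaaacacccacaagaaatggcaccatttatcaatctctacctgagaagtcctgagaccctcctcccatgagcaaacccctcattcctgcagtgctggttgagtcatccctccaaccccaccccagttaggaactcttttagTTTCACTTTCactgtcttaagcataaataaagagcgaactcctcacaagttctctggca
Irgm1: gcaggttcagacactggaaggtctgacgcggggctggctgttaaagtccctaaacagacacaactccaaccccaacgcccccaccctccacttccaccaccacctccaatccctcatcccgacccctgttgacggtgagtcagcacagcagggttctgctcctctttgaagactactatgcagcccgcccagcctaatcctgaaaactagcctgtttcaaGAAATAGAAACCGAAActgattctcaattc
Igtp: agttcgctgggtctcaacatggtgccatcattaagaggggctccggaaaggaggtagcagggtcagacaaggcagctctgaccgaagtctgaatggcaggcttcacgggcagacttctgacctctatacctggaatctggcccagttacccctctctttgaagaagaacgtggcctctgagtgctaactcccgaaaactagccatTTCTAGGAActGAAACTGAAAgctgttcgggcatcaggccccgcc
Gm12250: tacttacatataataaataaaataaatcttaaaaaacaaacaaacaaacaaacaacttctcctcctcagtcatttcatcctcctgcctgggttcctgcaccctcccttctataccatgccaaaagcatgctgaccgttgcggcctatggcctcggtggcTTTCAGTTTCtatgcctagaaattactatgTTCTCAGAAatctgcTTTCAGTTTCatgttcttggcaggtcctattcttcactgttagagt
In Gbp2 the capitals start 59 bases before the gene's start. In Irgm1 they are 2 ISRE matches that overlap, starting 30 and 24 bases before it. In Igtp the GAS letters start 45 bases and the ISRE letters 34 bases before it, and in Gm12250 a GAS match at 61 bases stands between ISRE matches at 91 and 46 bases. A match describes letters only and says nothing of what binds there.

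Gbp2, Gbp3, Gbp5 and Gbp7 lie in 1 cluster on chromosome 3, Gbp6 lies beside Gbp10 on chromosome 5, and Iigp1 is on chromosome 18. Gm12250, Igtp and Irgm2 are direct neighbours on chromosome 11, and Irgm1 lies elsewhere on chromosome 11. Because 3′ reads were counted, the last 500 bases of each transcript were compared in runs of 50 bases with all other transcripts. Of the runs of Gbp6, 77.8% were also found in other genes, Gbp10 and Gbp9 among them, so its counts are uncertain. In the other genes at most 3.96% of the runs were shared.

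The files hold 56726 cell barcodes, 13076 to 15138 a library, of which 53265 were kept, with median UMI (unique molecular identifier) counts per barcode of 2462 in IL-4 C1q EV, 2615 in IL-1a TNFa C1q EV, 2663 in UT EV and 4541 in MAPS. Pairs of libraries share 43 to 64 barcodes. The 18 cell classes were gated by counting marker genes in each cell, and the markers of every class described in full were all detected in each library. MAPS stands apart: it is deeper, its microglia held 6698 CPM (UMIs per 1000000 UMIs of the class) of microglia marker UMIs, against 2531 CPM in IL-4 C1q EV, 2251 CPM in IL-1a TNFa C1q EV and 2620 CPM in UT EV, and it has few endothelial cells. In microglia the median gene was lower in all 3 EV libraries than in MAPS, by 1.27, 1.44 and 1.22 on the log2 scale. Values of the EV libraries are therefore set mainly against each other, and MAPS levels are given beside them.

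Over all kept cells the 10 genes together gave 14065 UMIs in IL-4 C1q EV, 7188 in IL-1a TNFa C1q EV, 7558 in UT EV and 13980 in MAPS. As CPM this was 325, 149, 177 and 188 CPM, in that order of libraries. These levels also carry the make-up of each library, so the classes were taken one by one.

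Endothelial cells, which line the vessels, held the most of these transcripts as CPM in 3 of the 4 libraries, among the classes with at least 50 cells in each EV library (in MAPS, at least 50 cells there too). The summed level of the 10 genes there was 1128 CPM in IL-4 C1q EV (1600 cells), 332 CPM in IL-1a TNFa C1q EV (1108 cells), 671 CPM in UT EV (1348 cells) and 771 CPM in MAPS (143 cells). In IL-4 C1q EV, neutrophils came next among these classes with 590 CPM, apart beyond counting error from endothelial cells above and from T cells at 434 CPM below, while T cells were not apart from border macrophages at 414 CPM. In UT EV the same order held with 465 CPM in neutrophils and 324 CPM in T cells. In IL-1a TNFa C1q EV, neutrophils at 374 CPM and endothelial cells at 332 CPM were not apart beyond counting error. In MAPS, T cells followed endothelial cells with 622 CPM and NK cells came after them with 373 CPM; neutrophils were under 50 cells there. Fibroblasts, with 48 cells in IL-1a TNFa C1q EV, are outside this order and stood high too, at 630 CPM in IL-4 C1q EV, 302 CPM in IL-1a TNFa C1q EV, 195 CPM in UT EV and 509 CPM in MAPS (103, 48, 53 and 64 cells).

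**Figure D1:**
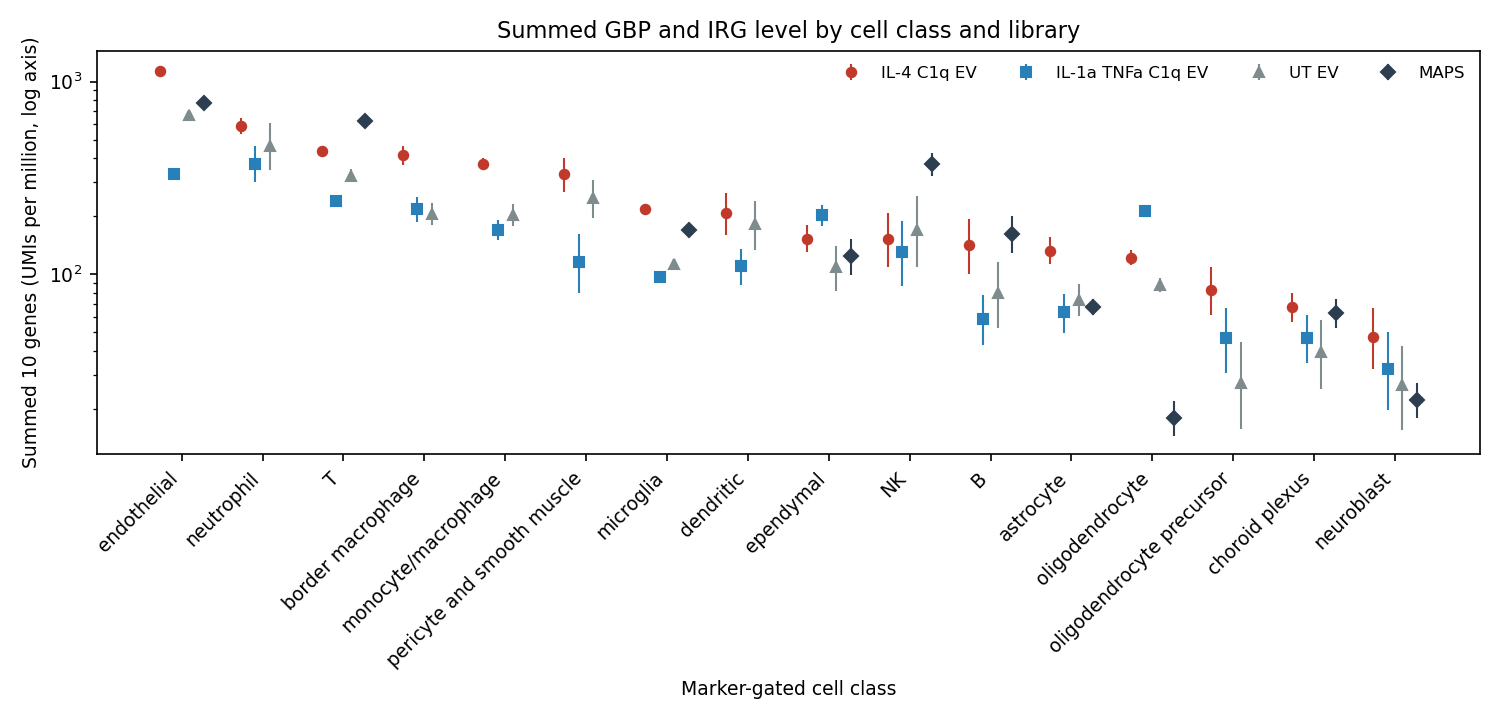
Summed level of the 10 genes (CPM, log axis) in each cell class and library, with lines for exact 95% counting intervals. Endothelial cells are highest in IL-4 C1q EV at 1128 CPM, and oligodendrocytes are among the few classes where IL-1a TNFa C1q EV, at 212 CPM, is the highest library.

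Microglia, the brain's resident macrophages, were the class with the most cells in every library, and their summed level was 217 CPM in IL-4 C1q EV, 97.2 CPM in IL-1a TNFa C1q EV, 113 CPM in UT EV and 169 CPM in MAPS. At the low end stood neuroblasts, young neurons, with 47.2 CPM in IL-4 C1q EV, 32.3 CPM in IL-1a TNFa C1q EV, 26.5 CPM in UT EV and 22.3 CPM in MAPS. In MAPS oligodendrocytes, at 17.9 CPM, were not apart from neuroblasts beyond counting error. No class here can be taken to lack these genes, so neuroblasts are given as a low mark beside the shares of cells below. With each cell thinned to 1000 UMIs, at least 1 UMI of the 10 genes was seen in 62.8% of endothelial cells in IL-4 C1q EV, 26.9% in IL-1a TNFa C1q EV, 46.6% in UT EV and 54.0% in MAPS. In microglia these shares were 17.8%, 8.44%, 8.93% and 14.8%, and in neuroblasts 3.21%, 1.63%, 1.43% and 1.16%, in the same order of libraries. Without thinning the shares were 79.6%, 51.8%, 64.9% and 79.7% of endothelial cells and 39.9%, 21.4%, 26.3% and 50.5% of microglia. More endothelial cells and more microglia of IL-4 C1q EV than of the other EV libraries thus carried a transcript of the family at equal depth.

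In microglia, vesicles of the kind the series title calls IL-4/C1q activated were first set against those labelled UT. The summed level was 217 CPM in IL-4 C1q EV and 113 CPM in UT EV, a ratio of 1.93 (1.82 to 2.03). All 10 genes had at least 50 UMIs over both libraries, and 8 of them were at least 1.5-fold higher in IL-4 C1q EV, where 2.52% of the 11280 genes measured passed that fold upwards. None of the 10 was 1.5-fold lower, where 4.53% of all genes were. The 2 genes that stayed under the fold are both guanylate-binding proteins, Gbp2 and Gbp5.

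As sums, the immunity-related GTPases had a larger microglial difference than the guanylate-binding proteins, though single genes of the families overlapped. Gm12250, an effector, was at 69.0 CPM in IL-4 C1q EV, 25.4 CPM in IL-1a TNFa C1q EV, 27.3 CPM in UT EV and 7.26 CPM in MAPS, and its ratio of IL-4 C1q EV over UT EV was 2.53 (2.27 to 2.82). Irgm1, which guards the cell's own membranes and autophagy, was at 35.3 CPM in IL-4 C1q EV, 11.1 CPM in IL-1a TNFa C1q EV, 14.6 CPM in UT EV and 25.2 CPM in MAPS, with a ratio of 2.41 (2.08 to 2.80). Iigp1, an effector loaded onto parasite vacuoles, was at 18.6 CPM in IL-4 C1q EV, 8.09 CPM in IL-1a TNFa C1q EV, 9.03 CPM in UT EV and 10.7 CPM in MAPS, with a ratio of 2.06 (1.70 to 2.51). For each of these genes IL-4 C1q EV was the highest library, and IL-1a TNFa C1q EV had the lowest value of the EV libraries. The other regulators, Igtp and Irgm2, had ratios of 1.77 (1.48 to 2.13) and 1.76 (1.41 to 2.22). Summed, the 3 Irgm genes were at 67.4 CPM in IL-4 C1q EV and 32.8 CPM in UT EV, a ratio of 2.06 (1.86 to 2.28).

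Among the guanylate-binding proteins of microglia, Gbp7 was at 22.9 CPM in IL-4 C1q EV, 13.3 CPM in IL-1a TNFa C1q EV, 14.3 CPM in UT EV and 35.2 CPM in MAPS, with a ratio of IL-4 C1q EV over UT EV of 1.60 (1.36 to 1.88). Gbp3 had a ratio of 1.67 (1.32 to 2.13) and Gbp6, with its uncertain counts, 1.88 (1.17 to 3.08). Gbp2, which coats pathogen vacuoles, was at 14.6 CPM in IL-4 C1q EV, 10.6 CPM in IL-1a TNFa C1q EV, 10.3 CPM in UT EV and 15.0 CPM in MAPS, with a ratio of 1.42 (1.17 to 1.73). Gbp5, a guanylate-binding protein linked to NLRP3 inflammasome assembly, was at 11 CPM in IL-4 C1q EV, 7.35 CPM in IL-1a TNFa C1q EV, 11.1 CPM in UT EV and 14.9 CPM in MAPS, and its ratio was 0.991 (0.806 to 1.22). The ratio of Gbp5 changed with thinning: with each cell thinned to 1000 UMIs, and cells under 1000 left out, it was 1.95 (1.27 to 3.05). A single microglial cell of UT EV held 63 UMIs of the 10 genes, against at most 21 in a cell of IL-4 C1q EV. The part of that cell in the Gbp5 ratio was not tested. The sum of the 5 Gbp genes had a ratio of 1.42 (1.30 to 1.57), an interval that does not overlap that of the 3 Irgm genes. Both sums are without thinning, and the Gbp sum includes Gbp5, whose ratio changed with thinning. Gene by gene the families overlapped, with Gbp6 above Igtp and Irgm2.

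**Figure D2:**
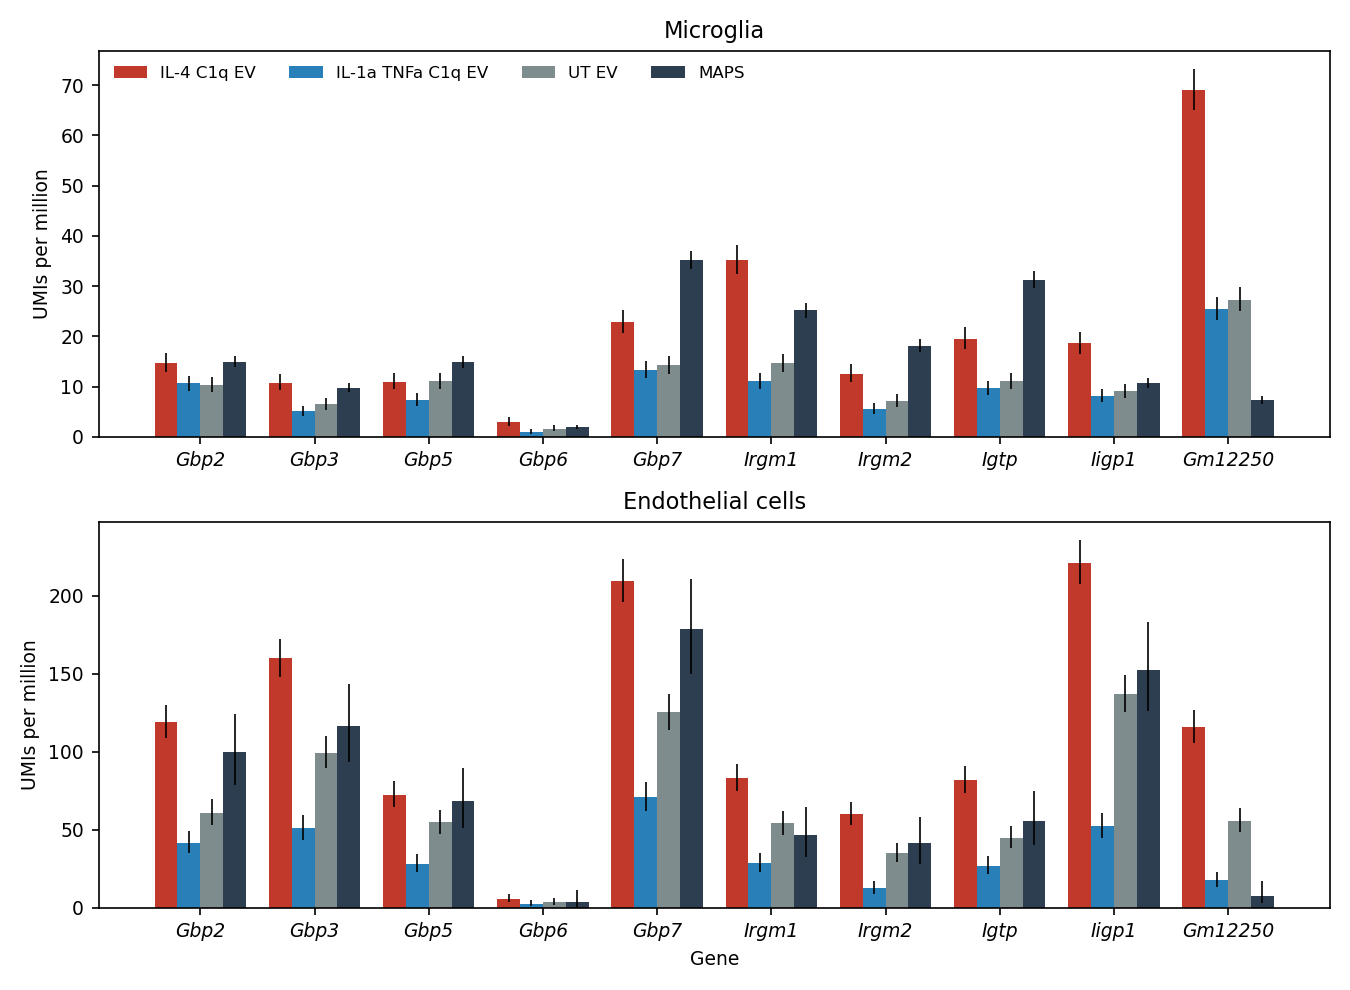
Level (CPM, bars from 0) of each of the 10 genes in microglia and endothelial cells of the 4 libraries, with lines for exact 95% counting intervals. Gm12250 in microglia is at 69.0 CPM in IL-4 C1q EV and at 7.26 CPM in MAPS, while Gbp5 in microglia is at 11 CPM in IL-4 C1q EV and 11.1 CPM in UT EV.

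Set against the other activated vesicles, microglia of IL-4 C1q EV held 2.24 (2.11 to 2.37) times the summed level that IL-1a TNFa C1q EV held, and 8 of 10 genes were at least 1.5-fold higher, against 6.51% of all 11163 genes. Irgm1 had the ratio 3.19, Gbp6 2.87 and Gm12250 2.72. Gbp5 at 1.496 fell just short of the fold, and Gbp2 was at 1.38. Between IL-1a TNFa C1q EV and UT EV the microglial sum had the ratio 0.861 (0.808 to 0.917), which was 0.977 after thinning and 0.970 with TMM (trimmed mean) scaling. There 1 of 9 measured genes, Gbp5 at 0.663 (0.530 to 0.827), was at least 1.5-fold lower, where 7.23% of all genes were, and none was higher, where 1.59% were. After thinning Gbp5 was at 1.06 (0.653 to 1.73) there. These comparisons share libraries and are not independent of one another.

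Over MAPS the microglial sum had a ratio of 1.28 (1.23 to 1.34) for IL-4 C1q EV, 0.574 (0.545 to 0.604) for IL-1a TNFa C1q EV and 0.667 (0.635 to 0.701) for UT EV. The value above 1 for IL-4 C1q EV rested on Gm12250, whose own ratio there was 9.51 (8.39 to 10.8). Without Gm12250 the sum of the other 9 genes had a ratio of 0.916 (0.874 to 0.959) for IL-4 C1q EV. That ratio was 0.443 for IL-1a TNFa C1q EV and 0.528 for UT EV. With 71.1%, 72.3% and 69.1% of genes at least 1.5-fold lower in these libraries than in MAPS, the scaling decides the direction: with TMM scaling the ratio over MAPS was 1.40 for IL-1a TNFa C1q EV and 1.45 for UT EV. Under TMM the ratio of IL-4 C1q EV over MAPS was 2.91. Of the 10 genes 3, 1 and 1 passed the 1.5-fold limit upwards over MAPS, in the same order of libraries, against 8.99%, 10.4% and 9.94% of all genes, and 2, 7 and 5 passed it downwards. Under TMM 8, 3 and 4 genes passed it upwards, against 29%, 30.3% and 29.5% of all genes.

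Endothelial cells gave the largest ratio of IL-4 C1q EV over IL-1a TNFa C1q EV among the 16 classes compared. The sum of the 10 genes in IL-4 C1q EV was 1.68 (1.60 to 1.77) times that in UT EV, and 3.40 (3.18 to 3.63) times that in IL-1a TNFa C1q EV. In IL-1a TNFa C1q EV it was 0.495 (0.460 to 0.531) times that in UT EV. Of 9 measured genes (Gbp6 had too few UMIs), 8 were at least 1.5-fold higher in IL-4 C1q EV than in UT EV, against 4.49% of all genes, with Gbp5 at 1.32 outside. Over IL-1a TNFa C1q EV all 9 passed the fold upwards, against 9.32% of all genes. In IL-1a TNFa C1q EV, 8 of the 9 were at least 1.5-fold lower than in UT EV, against 7.72% of all genes, with Gbp2 at 0.683 outside.

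Iigp1 was at 221 CPM in endothelial cells of IL-4 C1q EV, 52.2 CPM in IL-1a TNFa C1q EV, 137 CPM in UT EV and 153 CPM in MAPS. Gbp7 was at 210 CPM in IL-4 C1q EV, 70.8 CPM in IL-1a TNFa C1q EV, 125 CPM in UT EV and 179 CPM in MAPS. Gbp3 was at 160 CPM in IL-4 C1q EV, 51.0 CPM in IL-1a TNFa C1q EV, 99.2 CPM in UT EV and 116 CPM in MAPS. All 3 genes put the libraries in the same order, with IL-4 C1q EV highest and IL-1a TNFa C1q EV lowest. Gm12250 was at 116 CPM in IL-4 C1q EV, 17.8 CPM in IL-1a TNFa C1q EV, 55.8 CPM in UT EV and 7.76 CPM in MAPS, and its ratio of IL-4 C1q EV over IL-1a TNFa C1q EV, 6.51 (4.96 to 8.67), was the largest of the 9. For Irgm2 that ratio was 4.73 (3.40 to 6.72) and for Iigp1 4.24 (3.60 to 5.01). Neutrophil markers summed to 258 CPM in endothelial cells of IL-4 C1q EV, against 44.3 CPM in IL-1a TNFa C1q EV, 6.5 CPM in UT EV and 41.4 CPM in MAPS, and their part in the result was not tested.

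**Figure D3:**
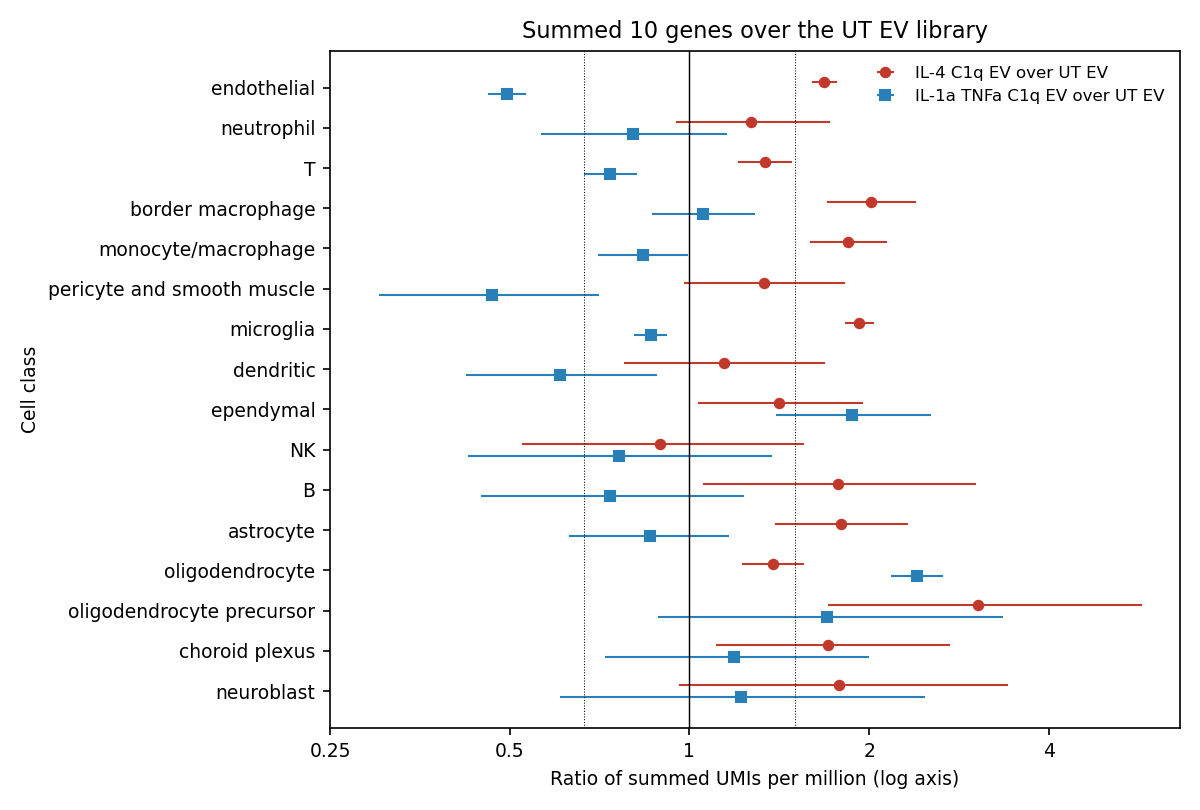
Ratio of the summed CPM of the 10 genes (log axis) for IL-4 C1q EV over UT EV and likewise IL-1a TNFa C1q EV over UT EV in each class, with lines for exact 95% counting intervals, a full line at 1 and dotted lines at the 1.5-fold limits. Endothelial cells at 0.495 and oligodendrocytes at 2.40 lie on opposite sides of 1 for IL-1a TNFa C1q EV over UT EV.

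T cells, the main source of interferon gamma, had a summed level of 434 CPM in IL-4 C1q EV, 239 CPM in IL-1a TNFa C1q EV, 324 CPM in UT EV and 622 CPM in MAPS. The ratio of IL-4 C1q EV over UT EV was 1.34 (1.21 to 1.48), and of the 10 genes Irgm1 at 1.98 and Irgm2 at 2.23 passed the fold, against 3.71% of all genes. Over IL-1a TNFa C1q EV the ratio was 1.82 (1.65 to 2.0) with 8 of 10 genes past the fold, against 7.97% of all genes. Between IL-1a TNFa C1q EV and UT EV it was 0.736 (0.665 to 0.815), with 5 of 9 measured genes at least 1.5-fold lower, against 11.4% of all genes. NK cells, the other source, had ratios of 0.893 (0.524 to 1.55) for IL-4 C1q EV over UT EV and 0.762 (0.426 to 1.37) for IL-1a TNFa C1q EV over UT EV, both within counting error of 1.

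Of the EV libraries, IL-4 C1q EV had the highest sum in monocytes and macrophages, border macrophages, astrocytes and oligodendrocyte precursors. Their order of IL-1a TNFa C1q EV and UT EV varied, with 170 CPM in IL-1a TNFa C1q EV and 203 CPM in UT EV in monocytes and macrophages, and 217 CPM in IL-1a TNFa C1q EV and 205 CPM in UT EV in border macrophages. A single border macrophage of UT EV held 52 of that class's 229 UMIs of the 10 genes, which the counting intervals do not take into account. For IL-4 C1q EV over UT EV the ratio was 1.85 (1.59 to 2.14) in monocytes and macrophages, 2.02 (1.70 to 2.40) in border macrophages and 1.80 (1.39 to 2.32) in astrocytes. It was 3.04 (1.70 to 5.72) in oligodendrocyte precursors, where the sums were 83.1 CPM in IL-4 C1q EV, 46.4 CPM in IL-1a TNFa C1q EV and 27.3 CPM in UT EV. In neutrophils it was 1.27 (0.950 to 1.72), in dendritic cells 1.14 (0.776 to 1.69) and in pericytes and smooth muscle 1.33 (0.980 to 1.82), all within counting error of 1. Ependymal cells, which line the ventricles, were highest in IL-1a TNFa C1q EV: 153 CPM in IL-4 C1q EV, 203 CPM in IL-1a TNFa C1q EV, 108 CPM in UT EV and 124 CPM in MAPS. Their ratio of IL-1a TNFa C1q EV over UT EV was 1.87 (1.40 to 2.54), and 1.02 (0.525 to 2.07) after thinning to 1000 UMIs. Without thinning, 19 of 207 ependymal cells of IL-1a TNFa C1q EV held at least 5 UMIs of the 10 genes, against 5 of 189 in IL-4 C1q EV, 1 of 121 in UT EV and 4 of 78 in MAPS. Those 19 cells were deep, with a median of 12126 UMIs, against 4146 in cells of that library with none. The 1 cell of UT EV held 45.6% of its class's UMIs of these genes, which the counting interval does not take into account.

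Oligodendrocytes, the myelinating cells, also went against the order of microglia and endothelial cells. The 10 genes gave 531 UMIs or 122 CPM in IL-4 C1q EV, 1228 UMIs or 212 CPM in IL-1a TNFa C1q EV, 546 UMIs or 88.3 CPM in UT EV and 91 UMIs or 17.9 CPM in MAPS. IL-1a TNFa C1q EV over UT EV had a ratio of 2.40 (2.17 to 2.66), and 6 of 8 measured genes were at least 1.5-fold higher, against 1.79% of all genes. IL-4 C1q EV over IL-1a TNFa C1q EV had a ratio of 0.574 (0.518 to 0.636), with 3 of 8 genes at least 1.5-fold lower, against 2.33% of all genes. IL-4 C1q EV over UT EV had a ratio of 1.38 (1.22 to 1.56), with Gbp7 at 1.69 and Igtp at 1.51 past the fold among 6 measured genes, against 2.92% of all genes.

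In these cells Gm12250 was at 28.2 CPM in IL-4 C1q EV, 69.5 CPM in IL-1a TNFa C1q EV, 23.0 CPM in UT EV and 0.394 CPM in MAPS. Iigp1 was at 18.6 CPM in IL-4 C1q EV, 39.9 CPM in IL-1a TNFa C1q EV, 13.6 CPM in UT EV and 1.18 CPM in MAPS. Gbp2 was at 3.67 CPM in IL-4 C1q EV, 11.1 CPM in IL-1a TNFa C1q EV, 2.91 CPM in UT EV and 0.787 CPM in MAPS. For IL-1a TNFa C1q EV over UT EV these 3 genes had ratios of 3.03 (2.49 to 3.69), 2.94 (2.28 to 3.82) and 3.80 (2.22 to 6.82). The membrane guards Irgm1 and Irgm2, at 1.44 and 1.29, stayed under the fold, while Igtp passed it at 2.08.

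The transcripts sat in few oligodendrocytes. Cells with at least 5 UMIs of the 10 genes, a limit chosen after seeing the data, were 27 of 996 in IL-4 C1q EV (2.71%, 1.79 to 3.92), 65 of 1368 in IL-1a TNFa C1q EV (4.75%, 3.69 to 6.02), 26 of 1367 in UT EV (1.90%, 1.25 to 2.77) and 2 of 652 in MAPS (0.307%). They held 63.5% of the class's UMIs of these genes in IL-4 C1q EV, 83.4% in IL-1a TNFa C1q EV, 61.0% in UT EV and 14.3% in MAPS. The highest single cell held 49 UMIs in IL-4 C1q EV, 54 in IL-1a TNFa C1q EV, 33 in UT EV and 8 in MAPS. After thinning to 1000 UMIs, the share of oligodendrocytes with any of these transcripts was 6.39% in IL-4 C1q EV, 6.80% in IL-1a TNFa C1q EV, 4.51% in UT EV and 2.08% in MAPS. The shares of IL-4 C1q EV and IL-1a TNFa C1q EV were thus closer than their sums.

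In IL-1a TNFa C1q EV the oligodendrocytes with at least 5 such UMIs had 10923 CPM of oligodendrocyte markers, against 12216 CPM in oligodendrocytes with none. The type I interferon genes summed to 1689 CPM in cells with at least 5 UMIs and 130 CPM in cells with none, and the MHC class II genes to 1394 CPM and 357 CPM. Psmb8 and H2-D1 were chosen after their values were seen. Psmb8, an immunoproteasome subunit, was at 1681 CPM in cells with at least 5 UMIs and 75.4 CPM in cells with none. H2-D1, an MHC class I chain, was at 4013 CPM in cells with at least 5 UMIs and 685 CPM in cells with none. Markers of T cells (13.6 CPM against 51.9 CPM), NK cells (0 CPM against 21.4 CPM), fibroblasts (2.71 CPM against 38.4 CPM) and microglia (73.2 CPM against 117 CPM) were lower in the cells with at least 5 UMIs, and endothelial markers (70.5 CPM against 33.2 CPM) were higher. Over the whole class, T cell markers were at 25.0 CPM in IL-4 C1q EV, 51.0 CPM in IL-1a TNFa C1q EV, 21.3 CPM in UT EV and 34.4 CPM in MAPS, and their part in the class sum was not tested. In IL-4 C1q EV the cells with at least 5 such UMIs did carry markers of other classes, fibroblast markers at 463 CPM against 6.69 CPM in cells with none and endothelial markers at 449 CPM against 48.6 CPM. In 4 of those cells of IL-1a TNFa C1q EV, 1 of IL-4 C1q EV and 1 of UT EV, oligodendrocyte led the next class by 1 marker only.

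**Figure D4:**
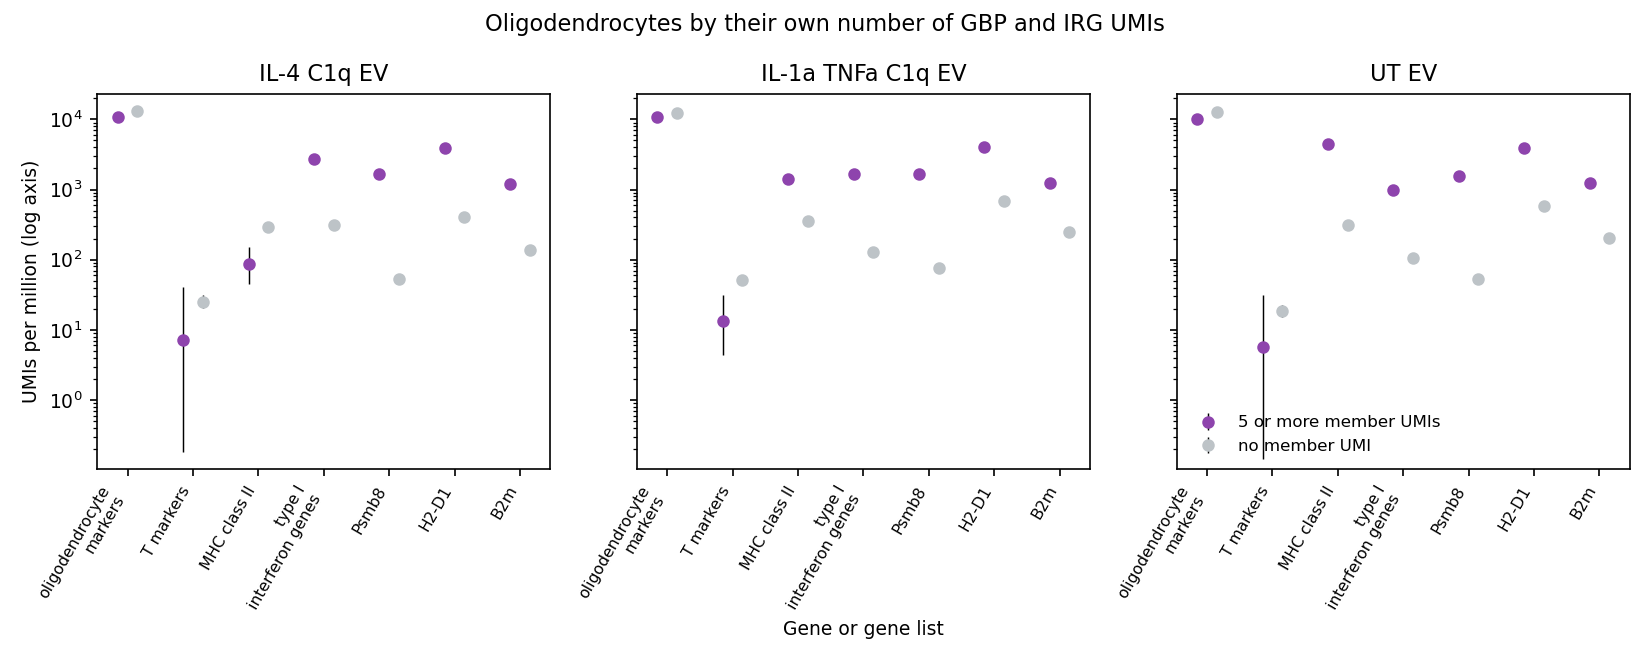
Levels (CPM, log axis) of marker lists, interferon lists and 3 genes in oligodendrocytes with at least 5 UMIs of the 10 genes and with none, in each EV library, with lines for exact 95% counting intervals. Psmb8 in IL-1a TNFa C1q EV is at 1681 CPM in the cells with at least 5 and 75.4 CPM in those with none, while oligodendrocyte markers are at 10923 CPM and 12216 CPM.

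The genes that sense and pass on interferon were then compared. Ifng, the gene for interferon gamma, had 705 UMIs in IL-4 C1q EV, 1475 in IL-1a TNFa C1q EV, 1059 in UT EV and 1758 in MAPS over all kept cells. T cells held 73.2%, 86.7%, 85.3% and 81.6% of them and NK cells 22.0%, 6.64%, 5.48% and 9.73%, in that order of libraries. In T cells it was at 264 CPM in IL-4 C1q EV, 346 CPM in IL-1a TNFa C1q EV, 437 CPM in UT EV and 221 CPM in MAPS. In NK cells it was at 605 CPM in IL-4 C1q EV, 455 CPM in IL-1a TNFa C1q EV, 412 CPM in UT EV and 305 CPM in MAPS. Of the EV libraries, IL-4 C1q EV had the lowest Ifng level in T cells and the highest in NK cells. The receptor chains were close between EV libraries in microglia, with Ifngr1 at 340 CPM in IL-4 C1q EV, 328 CPM in IL-1a TNFa C1q EV and 333 CPM in UT EV. Ifnb1, which encodes a type I interferon, had few UMIs in microglia. It gave 61 UMIs or 3.71 CPM in IL-4 C1q EV and 23 UMIs or 1.22 CPM in IL-1a TNFa C1q EV. In UT EV it gave 12 UMIs or 0.669 CPM, and in MAPS 20 UMIs or 0.461 CPM. Its part in the level of the 10 genes was not tested.

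In microglia, Irf1, a transcription factor that acts early after interferon gamma, was at 111 CPM in IL-4 C1q EV, 83.6 CPM in IL-1a TNFa C1q EV, 127 CPM in UT EV and 108 CPM in MAPS. Cxcl9, a chemokine that leans on interferon gamma, was at 24.2 CPM in IL-4 C1q EV, 56.1 CPM in IL-1a TNFa C1q EV, 44.1 CPM in UT EV and 25.9 CPM in MAPS, with a ratio of IL-4 C1q EV over UT EV of 0.548 (0.485 to 0.619). Neither Irf1 nor Cxcl9 had IL-4 C1q EV as its highest library, as the sum of the 10 genes did among the EV libraries.

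Gene lists were set beside the family in microglia for IL-4 C1q EV over UT EV. All 15 measured type I interferon genes were at least 1.5-fold higher, with a median log2 ratio of 1.97, where the 10 genes had 0.82 and all genes -0.06. Ifit3, which binds viral RNA, was at 146 CPM in IL-4 C1q EV and 23.7 CPM in UT EV, and Oasl2 had a ratio of 6.56. Of 6 measured MHC class II genes, whose control runs through interferon gamma and CIITA, none was higher and 3 were at least 1.5-fold lower, against 4.53% of all genes, with a median of -0.58. Of 13 interferon gamma signalling genes 11 were higher at all, as were 4374 of all 11280 genes. Of those 13, 2 were at least 1.5-fold higher, against 2.52% of all genes, and their median was 0.04. Of 6 other genes leaning on interferon gamma 5 were higher at all, none of them by 1.5-fold. Their remaining gene, Cxcl9, was at least 1.5-fold lower, and the median of the 6 was 0.14. Of 10 measured further GBP and IRG genes 5 were at least 1.5-fold higher, Tgtp2 at a ratio of 2.79 and Gm4951 at 2.22 among them. By their medians in microglia, the 10 genes and the type I list thus lay above UT EV. The interferon gamma signalling genes and the other genes leaning on interferon gamma did so by less. The MHC class II list and the single gene Cxcl9 lay below UT EV.

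For IL-1a TNFa C1q EV over UT EV in microglia, 6 of 14 measured type I genes were at least 1.5-fold lower, against 7.23% of all genes. Their median was -0.58, where the 9 measured members had -0.20 and all genes -0.17. No MHC class II gene passed the fold there. In endothelial cells of IL-4 C1q EV over UT EV, 11 of 14 type I genes were at least 1.5-fold higher, against 4.49% of all genes, with a median of 0.95. So were 8 of 9 members, with a median of 0.74. Of 7 measured other genes leaning on interferon gamma all were higher there at all, as were 4170 of all 8681 genes, and their median was 0.51. At least 1.5-fold higher were 3 of the 7, against 4.49% of all genes: Cxcl9 (ratio 14.6), Cd274 (2.89) and Upp1 (2.70). For IL-1a TNFa C1q EV over UT EV in endothelial cells, 13 of 14 type I genes were at least 1.5-fold lower, against 7.72% of all genes. There 4 of 6 MHC class II genes were at least 1.5-fold higher, against 2.14% of all genes. Cxcl9 in endothelial cells was at 31.6 CPM in IL-4 C1q EV, 28.6 CPM in IL-1a TNFa C1q EV and 2.16 CPM in UT EV, so it was high in the library where the 10 genes were lowest. In oligodendrocytes of IL-1a TNFa C1q EV over UT EV, 5 of 8 type I genes were at least 1.5-fold higher, against 1.79% of all genes. So were all 3 measured further GBP and IRG genes. None of the MHC class II genes passed the fold. Of 4 measured other genes leaning on interferon gamma 2 were at least 1.5-fold higher, against the same 1.79% of all genes. These were Psmb8 at a ratio of 1.79 and Psmb9 at 1.68. The median log2 ratio was 0.64 for those 4 genes, 0.72 for the type I genes, 1.21 for the 8 measured members and -0.12 for all genes.

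Microglia were also split by their UMIs of the type I list after thinning to 1000 UMIs. Cells with none were 24.3% of microglia in IL-4 C1q EV, 77.4% in IL-1a TNFa C1q EV, 71.5% in UT EV and 80.4% in MAPS. Among those cells the 10 genes summed to 155 CPM in IL-4 C1q EV, 81.8 CPM in IL-1a TNFa C1q EV, 82.8 CPM in UT EV and 157 CPM in MAPS. Among cells with at least 3 such UMIs they summed to 287 CPM (260 to 315) in IL-4 C1q EV and 351 CPM (275 to 440) in IL-1a TNFa C1q EV. The sums were 269 CPM (206 to 345) in UT EV and 595 CPM (497 to 705) in MAPS. IL-4 C1q EV was thus above UT EV among microglia with no type I UMI, and the 3 EV libraries lay closer among microglia with at least 3. Such cells were 29.0% of microglia in IL-4 C1q EV, 3.61% in IL-1a TNFa C1q EV, 4.56% in UT EV and 3.14% in MAPS. Endothelial cells split in the same way stayed apart between the EV libraries at 3 or more type I UMIs. There the 10 genes summed to 1138 CPM (1077 to 1203) in IL-4 C1q EV and 424 CPM (340 to 523) in IL-1a TNFa C1q EV. In UT EV they summed to 884 CPM (812 to 961).

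Likeness across classes was measured as the correlation of log2(CPM + 1) with that of the summed 10 genes, over 40 sums of 10 classes in 4 libraries and 12828 genes. The points share libraries and depth, so the values are a description. The 5 genes most alike were Irf7 (r = 0.854), the master regulator of type I interferon genes, Tnfsf10 (0.830), Parp14 (0.818), H2-T22 (0.812) and Gbp9 (0.811). Over the 30 sums of the EV libraries they were Isg15 (0.850), Irf7 (0.834), Xaf1 (0.823), Arhgap31 (0.815) and Tnfsf10 (0.814). Among the members, Gbp7 was most like the sum of the other 9 (0.876), and Gm12250 (0.508) and Gbp6 (0.595) least. Over the EV libraries alone these values were 0.901 for Gbp7, 0.529 for Gm12250 and 0.521 for Gbp6.

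Gm12250 gave 1136, 480, 490 and 315 UMIs in microglia, in the order IL-4 C1q EV, then IL-1a TNFa C1q EV, then UT EV, then MAPS, while its direct neighbour Igtp gave 322, 182, 198 and 1358. Per Igtp UMI this is 3.53 Gm12250 UMIs in IL-4 C1q EV, 2.64 in IL-1a TNFa C1q EV, 2.47 in UT EV and 0.232 in MAPS. T cells had 2.18, 1.82, 1.86 and 0.328, endothelial cells 1.41, 0.663, 1.24 and 0.140, and oligodendrocytes 1.03, 1.83, 1.26 and 0.154, in the same order of libraries. In all 4 classes MAPS was thus below each EV library, with intervals that did not overlap. The ratio compares 2 genes within a library, so scaling does not enter it. Whether the counting of this gene differed between libraries cannot be told apart from the groups.

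**Figure D5:**
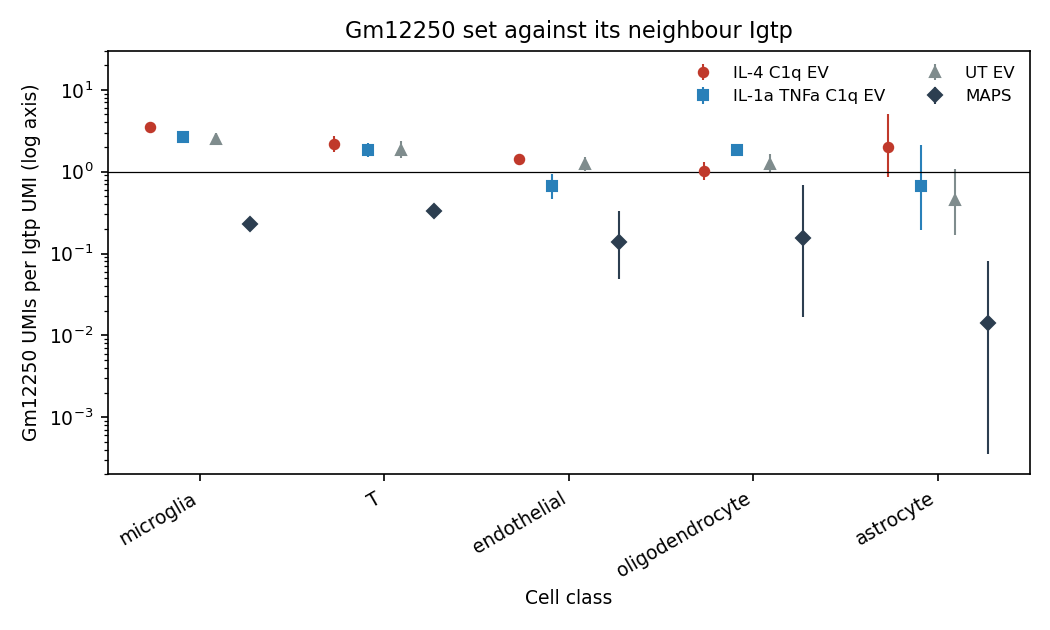
Gm12250 UMIs per Igtp UMI (log axis) in 5 classes of the 4 libraries, with lines for exact 95% counting intervals. MAPS is lowest in every class shown, at 0.232 in microglia, against 3.53 in IL-4 C1q EV, 2.64 in IL-1a TNFa C1q EV, then 2.47 in UT EV.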

How the data were processed

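Single-cell RNA was measured in 4 libraries of 1 group each, made with 10x Chromium 3′ chemistry per the labels' protocols. The deposited matrices hold UMI counts per gene and barcode, already limited to cells, per the file headers written by Cell Ranger 8.0.1; per the submitters' processing notes the tools were bcl2fastq 5.0.1, Cell Ranger 7.0.0 and Seurat 4.1.0, with build GRCm39. Totals were 46981829, 52552617, 45691141 and 81189155 UMIs in IL-4 C1q EV, IL-1a TNFa C1q EV, UT EV and MAPS.

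Barcodes under 500 UMIs or under 300 genes, or with over 20% of UMIs from mitochondrial genes, were dropped (Python 3.11.15, pandas 2.3.3), and doublets called per library by scrublet in scanpy 1.11.5 were removed (5.23%, 5.05%, 3.63% and 4.82% of the remaining barcodes, in the order above). A cell took the class with the most distinct markers detected, at least 2 and more than any other class. Of the kept cells 48399 took a class. UMIs were summed per library and class and divided by the class's total (CPM). Intervals are exact Poisson for levels, exact conditional binomial for ratios and exact binomial for shares (scipy 1.17.1). Genes with at least 50 UMIs over both libraries of a comparison were measured, and the fold was 1.5. Classes needed 50 cells. TMM factors came from edgeR 4.0.16 and were used as an alternative scaling only. The calculation of ratios was tested on simulated data.

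All 10 genes are named. From each other list at most the 4 genes with the largest ratio in microglia or endothelial cells were to be named. Genes of the interferon pathway (Ifng, Ifnb1, Ifngr1, Irf1, Cxcl9) and of the oligodendrocyte comparison were chosen after their values were seen. The members and lists were chosen with earlier results of these data known. Motifs before gene starts were searched on both strands in RefSeq windows of 250 bases, the ISRE being given by name. The order of GRCm38.p6 genes was used for names and neighbours. The keeping of called doublets, as an alternative, and the split at 5 UMIs were chosen after seeing the data. Untreated healthy mice, which the protocol mentions, were not analysed here.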

Additional observations from a re-analysis of the deposited data

Results flagged for a closer look

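The summed level of the 10 genes differed between IL-4 C1q EV and IL-1a TNFa C1q EV in opposite directions by class. IL-4 C1q EV was the higher library by 2.24-fold in microglia, 2.21-fold in monocytes and macrophages, 1.91-fold in border macrophages, 1.82-fold in T cells, 2.41-fold in B cells, 3.40-fold in endothelial cells, 2.86-fold in pericytes and smooth muscle and 2.09-fold in astrocytes. In oligodendrocytes the ratio of IL-4 C1q EV over IL-1a TNFa C1q EV was 0.574. For IL-1a TNFa C1q EV over UT EV the ratio was 2.40 in oligodendrocytes and 0.495 in endothelial cells. These classes stand out because their counting intervals lie wholly beyond 1.5-fold, upwards in some and downwards in others, in the same comparison. For B cells the interval was 1.52 to 3.78, on 38 UMIs in IL-4 C1q EV and 46 in IL-1a TNFa C1q EV. The intervals do not take into account that many UMIs can come from 1 cell. In oligodendrocytes of IL-1a TNFa C1q EV, 65 cells held 83.4% of the UMIs. With 1 library a group the difference between classes was not tested.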

How the results depend on the processing

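Over 176 ratios and counts, 984 of 1065 alternative values stayed within the counting interval of the value given (for counts, within 1.5 times), 75 moved outside it and 6 changed direction. In microglia, thinning each cell to 1000 UMIs gave a summed ratio of 2.14 for IL-4 C1q EV over UT EV and 0.977 for IL-1a TNFa C1q EV over UT EV. Over MAPS it gave 1.23 for IL-4 C1q EV and 0.573 for UT EV. For IL-1a TNFa C1q EV over UT EV 1 gene then passed the fold upwards, where 1.59% of all genes did without thinning. TMM scaling gave 2.07 for IL-4 C1q EV over IL-1a TNFa C1q EV, 0.970 for IL-1a TNFa C1q EV over UT EV, and over MAPS 2.91, 1.40 and 1.45 for IL-4 C1q EV, IL-1a TNFa C1q EV and UT EV, with 8, 3 and 4 genes past the fold, against 29%, 30.3% and 29.5% of all microglial genes. It shifts the median of all microglial genes over MAPS by 1.12 to 1.29 on the log2 scale, and for IL-1a TNFa C1q EV over UT EV by 0.17. A 2-fold limit left 3 genes for IL-4 C1q EV over UT EV, against 1.11% of all, and 1 for IL-4 C1q EV over MAPS, against 4.8%. After thinning, direction changed for ependymal cells of IL-4 C1q EV over UT EV (0.897), dendritic cells of IL-1a TNFa C1q EV over UT EV (1.21), Igtp in oligodendrocytes of IL-4 C1q EV over IL-1a TNFa C1q EV (1.01) and Gbp5 in microglia of IL-1a TNFa C1q EV over UT EV (1.06). The cause was not tested. Keeping called doublets was an alternative chosen after seeing the data. No paired analysis was possible because each group is 1 library, and no library could be left out for the same reason. Thinned values of single genes rest on few UMIs.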
